A study of Arabidopsis thaliana with 36 samples.

Results

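The xyloglucan endotransglucosylase/hydrolase (XTH) family of Arabidopsis thaliana was followed through all 12 groups of a seedling RNA sequencing study. The members were the 33 loci with the family names XTH1 to XTH33, out of 32833 loci listed in the deposited count tables. A member was kept where at least 10 counts were present in at least 3 of the 36 libraries, and 31 of the 33 members met this rule. XTH1 and XTH3 did not, with at most 5 and 2 counts in any library. The family is divided by sequence into group 1 (XTH1 to XTH11, 9 of 11 kept), group 2 (XTH12 to XTH26, 15 of 15 kept) and group 3 (XTH27 to XTH33, 7 of 7 kept).

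XTH enzymes act on xyloglucan, the main hemicellulose of the primary cell wall of Arabidopsis, which coats and links cellulose microfibrils. Most cut a xyloglucan chain and join the new end to another chain, which lets a wall stretch and be rebuilt while a cell grows, and some members of group 3 mainly hydrolyse the chain. The genes are known for expression that is confined to particular organs and cell types and that responds to touch, hormones, light and wounding.

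Seedlings of the sugar transporter triple mutant stp1/4/13, of the wild type Col and of fls2 were harvested at 2, 10 and 24 h of treatment with 1 µM flg22, a peptide of bacterial flagellin that is perceived by the receptor kinase FLS2. Further Col seedlings, titled 2DG_1mM, Suc_25mM and Suc_0mM, were sampled at 24 h; 2-deoxy-d-glucose (2DG) is a glucose analogue that is phosphorylated but not broken down further. Plants were raised at 22 °C with 16 h of light on agar medium with 25 mM sucrose, moved at 6 days of age into liquid medium, and treated 1 day later. The liquid medium held 25 mM sucrose in the flg22 experiment and no sucrose in the 2DG experiment. Each group had 3 libraries, which the design text attributes to 3 independent trials. The labels name no allele beyond these genotype names and no mock-treated group, so any effect of the fls2 or stp1/4/13 genotype itself is included in a difference between genotypes, and fls2 served as the background for flg22.

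In 6 libraries the title gives 2DG_1mM where the treatment label gives Suc_25mM, or the reverse; titles were followed here. The 10 h libraries and the 2 h and 24 h libraries are in separate count tables, so 10 h cannot be told apart from its table, and 10 h values are tested only against each other. Total counts per library were 17.2 to 19.6 M at 2 h, 9.46 to 11.3 M at 10 h, 16.0 to 20.1 M at 24 h after flg22, and 8.05 to 12.9 M for 2DG_1mM, Suc_25mM and Suc_0mM. FLS2 averaged 44.0, 23.0 and 22.1 CPM (counts per M counts of the library) in Col at 2, 10 and 24 h, against 0.150, 0.165 and 0.149 CPM in fls2. At 10 h the STP1, STP4 and STP13 genes averaged 9.20, 84.1 and 14.5 CPM in stp1/4/13, against 308, 380 and 323 CPM in Col.

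Levels are CPM; reads were taken from transcript 3′ ends, so levels are compared between samples and never between genes. Differences are log2 fold changes ± SE from edgeR's quasi-likelihood test (n = 3 libraries per group), with p-values adjusted over all genes of a fit, and a member is called where the adjusted p is under 0.05. A low-count filter left 29 members in the test at 2 h and 24 h, 30 at 10 h and 28 in the sucrose and 2DG groups. XTH25 entered no test. In some comparisons a member entered only through the group where it was higher, because the other libraries of the fit did not meet the filter. These were XTH2, XTH12, XTH13, XTH20, XTH21, XTH29 and XTH33 for Col against fls2 at 10 h, XTH2, XTH11, XTH12, XTH13, XTH20, XTH21 and XTH33 for stp1/4/13 against fls2 at 10 h, XTH10 and XTH29 for 2DG_1mM against Suc_0mM, and XTH10, XTH12, XTH21 and XTH29 for 2DG_1mM against Suc_25mM. Such members were selected for being higher there, so in these comparisons they are given as values with no test, and the counts and medians are given without them beside the total.

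All 33 loci were placed on the RefSeq genome TAIR10.1. The 3 acidic residues of the XTH active site lie in a short conserved stretch, which was found in the longest coding sequence of 32 members, all but XTH11. The 27 coding bases of this stretch are shown for members whose counts moved in opposite directions below, with the codons of the 3 acidic residues in capitals, so that neighbours and subfamilies can be compared.
XTH6: agagacGAGctaGATtttGAGttcttg
XTH17: tgggatGAGatcGATttcGAGttcttg
XTH18: tgggatGAGattGATttcGAGttctta
XTH19: tgggatGAGattGATttcGAGtttttg
XTH14: tgggatGAGattGACttcGAGtttttg
XTH23: tgggacGAGattGACtttGAGttcttg
XTH30: cacgacGAGttaGACataGAGtttcta
XTH31: cacgatGAGgtcGATatcGAGtttcta

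XTH18 and XTH19 were identical in this stretch up to the last capital codon and differed after it. The codon before the last acidic residue set 5 of the 7 group 3 members apart: it was ata or atc in XTH29 to XTH33, and ttt or ttc in the other 27 members with the stretch.

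XTH18 (AT4G30280, chr4:14825757-14827211, minus strand) and XTH19 (AT4G30290, chr4:14828712-14830224, minus strand) are adjacent genes with 87.6% identical coding sequence. XTH17 (AT1G65310, chr1:24257054-24258506, plus strand) is 85.6% identical to XTH18. XTH20, on chromosome 5, is also 85.6% identical to XTH18. The last 300 transcript bases, where the reads were taken, were 59.5% identical between XTH18 and XTH19 and 65.6% between XTH17 and XTH18. Over the 528 pairs of members, the longest run of identical bases in the 250 bases before the annotated starts was 73 bases, between XTH17 and XTH18, and the other 527 pairs shared at most 14 (median 9). These upstream regions are shown because XTH17 was lower and XTH18 higher in Col than in fls2 at 2 h and 10 h; the 73 shared bases are in capitals, and XTH19 is given without capitals for comparison.
XTH17 (chr1:24256804-24257053, plus strand): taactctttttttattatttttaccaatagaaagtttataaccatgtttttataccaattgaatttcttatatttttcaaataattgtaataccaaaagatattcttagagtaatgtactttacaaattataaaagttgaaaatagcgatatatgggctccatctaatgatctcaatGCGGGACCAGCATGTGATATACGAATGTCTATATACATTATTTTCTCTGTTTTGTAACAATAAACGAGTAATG
XTH18 (chr4:14827212-14827461, minus strand): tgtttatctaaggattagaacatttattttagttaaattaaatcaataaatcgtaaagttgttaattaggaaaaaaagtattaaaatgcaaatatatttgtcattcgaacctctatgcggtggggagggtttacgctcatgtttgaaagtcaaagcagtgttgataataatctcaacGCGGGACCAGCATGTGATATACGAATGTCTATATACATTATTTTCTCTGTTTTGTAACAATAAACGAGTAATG
XTH19 (chr4:14830225-14830474, minus strand): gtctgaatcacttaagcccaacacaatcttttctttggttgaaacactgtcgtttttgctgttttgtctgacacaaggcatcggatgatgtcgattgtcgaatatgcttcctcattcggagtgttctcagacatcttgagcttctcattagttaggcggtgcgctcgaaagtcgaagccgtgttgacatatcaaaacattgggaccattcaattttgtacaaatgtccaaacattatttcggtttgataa

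The shared run directly adjoins both annotated transcript starts. The next base to its left differs between XTH17 and XTH18, and the bases beyond it, atctcaa, are again the same. XTH18 held 1 match to the W-box core (TTGACC or TTGACT, read on either strand and here printed as agtcaa), the element bound by WRKY transcription factors, and XTH17 and XTH19 held none. In the window from 250 bases before to 50 bases after the start, 8 of 33 members (24.2%) held a W-box match, against 32.4% of 27443 protein-coding genes. CACGTG was in no member window, against 7.68% of all genes; CGTGTG or CGTGCG was in 12.1% of members, against 8.19%; and TATCCA was in 6.06% of members, against 16.1%. A match describes letters in a window and not a bound site.

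**Figure D1:**
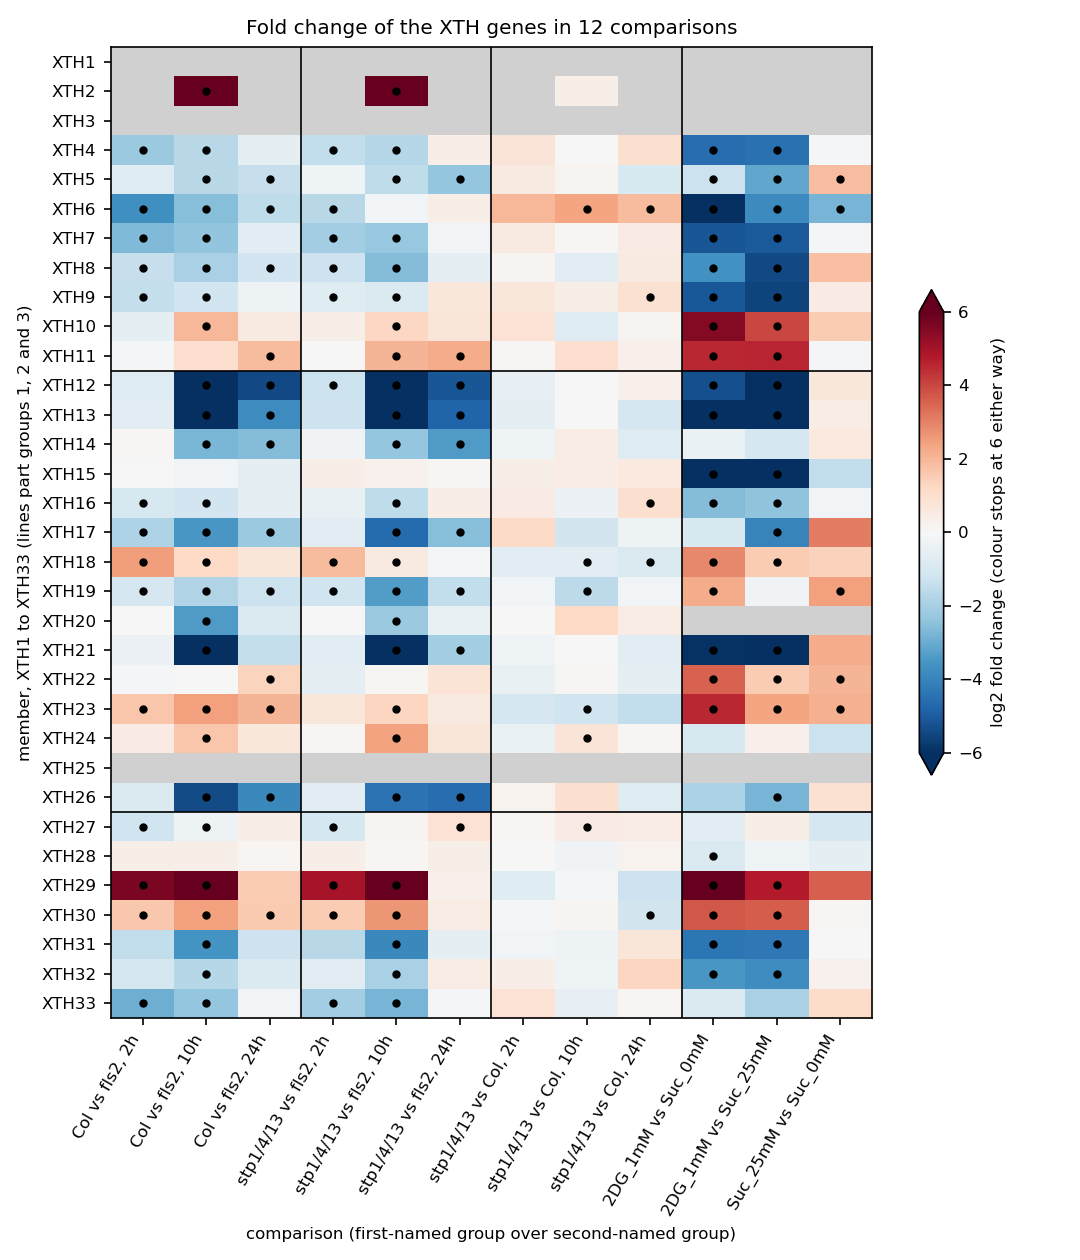
Log2 fold changes (colour, stopped at 6 in either direction) of the 33 members, in rows by subfamily, in 12 comparisons, in columns with the numerator group named first. Dots mark an edgeR adjusted p under 0.05, also for members that entered a test only through their higher group, and grey marks members not tested; XTH30 and XTH23 are red and XTH6, XTH7 and XTH17 blue in all 3 Col over fls2 columns, though XTH7 at 24 h carries no dot.

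At 2 h after flg22, 4 of the 29 tested members were higher and 10 lower in Col than in fls2, where 34.8% of all tested genes were called (18.7% higher and 16.1% lower). The median log2 fold change was -0.79 over the members and -0.02 over all genes. In group 1, 5 of 8 were lower. In group 2, 2 were higher and 3 lower of 14, and in group 3, 2 were higher and 2 lower of 7. XTH18, XTH23, XTH30 and XTH29 were the members that rose.

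XTH18, a group 2 gene known for expression in roots, had 347, 246 and 315 CPM in Col, against 55.8, 50.4 and 74.2 CPM in fls2 at 2 h (2.50 ± 0.28, edgeR adjusted p = 1.3e-06). Its Col libraries all lay far above its fls2 libraries. XTH30, of group 3, had 58.1, 44.4 and 62.8 CPM in Col and 14.9, 21.0 and 23.4 CPM in fls2 (1.63 ± 0.29, edgeR adjusted p = 0.0002), again without overlap. XTH23, also named XTR6, had 21.2, 23.1 and 37.1 CPM in Col and 8.01, 4.38 and 16.8 CPM in fls2 (1.68 ± 0.59, edgeR adjusted p = 0.033). The XTH23 groups stood apart, and its call was lost without fls2 library 1 or 2, without Col library 3, or with scaling by library totals. XTH29 was scarce, with 1.12, 0.734 and 1.68 CPM in Col and a count in only 1 of the 3 fls2 libraries (0.0547 CPM).

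The falls at 2 h were led by growth-associated group 1 genes and the membrane-anchored XTH33. XTH6 (AT5G65730) had 2.69, 1.26 and 2.19 CPM in Col, against 28.2, 34.1 and 24.0 CPM in fls2 (-3.67 ± 0.52, edgeR adjusted p = 2.2e-05). XTH33 had 0.280, 0.682 and 0.816 CPM in Col, against 3.66, 4.43 and 7.56 CPM in fls2 (-2.94 ± 0.50, edgeR adjusted p = 0.00015). In both genes every Col library was below every fls2 library. XTH7 had 29.7, 33.4 and 54.2 CPM in Col, against 282, 234 and 300 CPM in fls2 (-2.63 ± 0.44, edgeR adjusted p = 0.00011), the same pattern at a higher count. XTH4, XTH8, XTH9, XTH16, XTH17, XTH19 and XTH27 were lower as well, by -2.25 to -0.94 on the log2 scale. XTH31 and XTH32, group 3 members that are known mainly as xyloglucan hydrolases, had no overlap between Col and fls2 but did not pass the test (XTH31 -1.47 ± 0.63, edgeR adjusted p = 0.082; XTH32 -1.06 ± 0.42, edgeR adjusted p = 0.056). Both passed in a fit of the compared groups alone and with a block for the library number. XTH32 also passed with DESeq2, with scaling by library totals or without a filter. XTH5, of group 1, likewise had no overlap and did not pass (-0.79 ± 0.33, edgeR adjusted p = 0.071). It passed with scaling by library totals or with the compared groups alone.

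Of the close relatives of XTH18, XTH17 and XTH19 went the other way at 2 h. XTH20, 85.6% identical to XTH18 in coding sequence, averaged 10.1 CPM in Col and 11.3 CPM in fls2 and was not called. XTH19 had 5.22, 4.98 and 9.89 CPM in Col, against 19.0, 14.9 and 11.9 CPM in fls2 (-1.03 ± 0.29, edgeR adjusted p = 0.0089), a call lost without Col library 1 or 2. XTH17 had 6.28, 3.93 and 5.76 CPM in Col, against 19.4, 24.6 and 19.1 CPM in fls2 (-1.84 ± 0.38, edgeR adjusted p = 0.00087). Both were below fls2 in every Col library, where XTH18 was above it. XTH14 (AT4G25820, chr4:13130291-13131860, plus strand), which directly follows XTH23 (AT4G25810, chr4:13128394-13129927, plus strand), had 37.9, 33 and 45.2 CPM in Col and 35.1, 34.5 and 55.1 CPM in fls2, and these ranges overlapped.

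**Figure D2:**
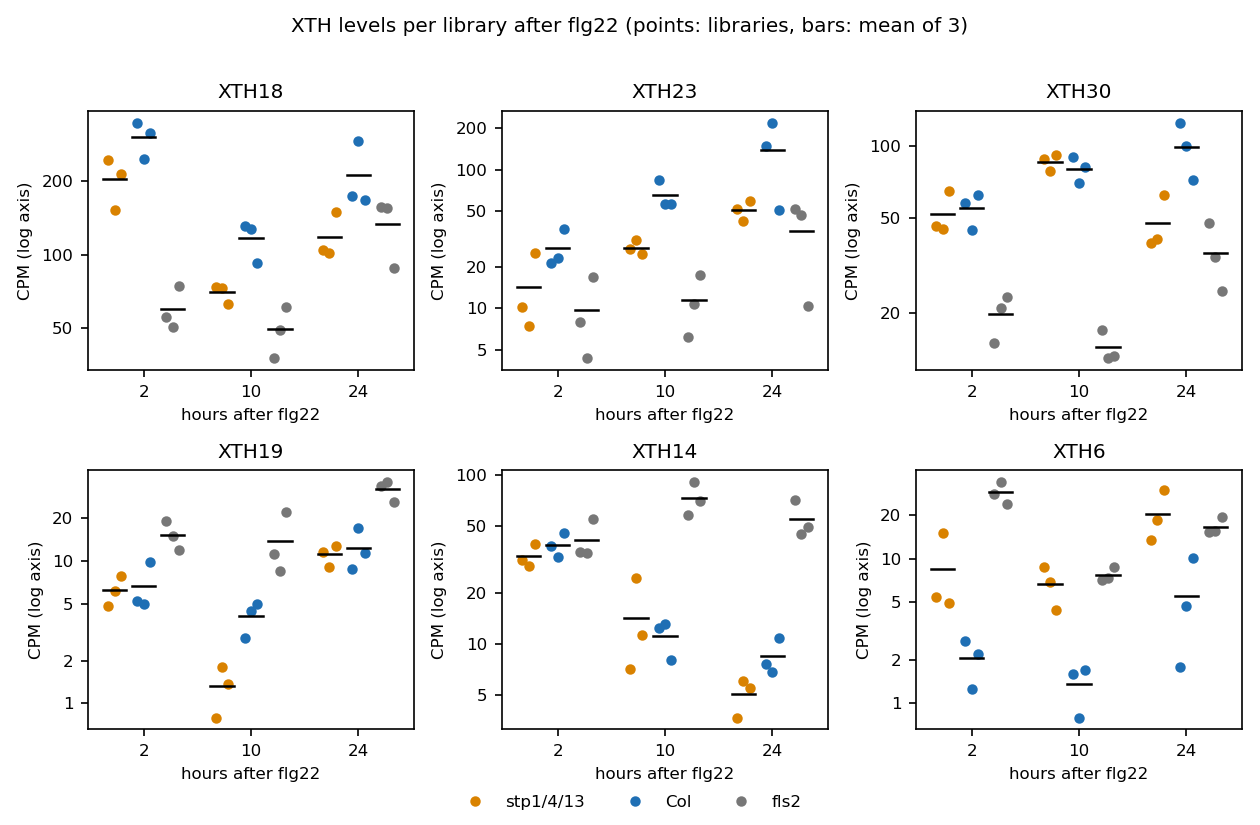
CPM per library (points, log axis) of XTH18, XTH23, XTH30, XTH19, XTH14 and XTH6 in stp1/4/13, Col and fls2 at 2, 10 and 24 h after flg22, with bars at the mean of the 3 libraries. XTH18 lies higher and XTH19 lower in Col than in fls2 at 2 h and 10 h, and no Col library of XTH6 is above 10.1 CPM.

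At 10 h, 26 of 30 tested members were called between Col and fls2, 7 higher and 19 lower, where 51.3% of all tested genes were called (24.9% higher and 26.4% lower). Of these, 7 members had entered only through the higher group. Without such genes, 5 members were higher and 14 lower of 23, against 25.9% higher and 26.1% lower of all genes, and the median log2 fold change was -1.17 over the members and -0.04 over all genes. Among these 23, group 1 had 1 higher and 6 lower of 8, group 2 had 3 higher and 5 lower of 10, and group 3 had 1 higher and 3 lower of 5. XTH11, XTH15, XTH22 and XTH28 were not called.

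Among the members that rose, XTH30 had 90.5, 69.9 and 81.8 CPM in Col, against 16.9, 12.9 and 13.2 CPM in fls2 at 10 h (2.45 ± 0.16, edgeR adjusted p = 2e-09). XTH23 had 84.1, 56.8 and 56.8 CPM in Col, against 6.27, 10.8 and 17.5 CPM in fls2 (2.47 ± 0.27, edgeR adjusted p = 7.4e-07). Both genes were several-fold higher in every Col library. XTH10, of group 1, had 6.07, 5.16 and 5.47 CPM in Col, against 0.910, 1.42 and 1.63 CPM in fls2 (2.01 ± 0.40, edgeR adjusted p = 0.00041). XTH24, first described as MERI5 from the shoot meristem, had 649, 514 and 473 CPM in Col and 151, 173 and 175 CPM in fls2 (1.66 ± 0.14, edgeR adjusted p = 4.5e-08). The groups did not overlap for either gene. XTH18 had 131, 127 and 92.8 CPM in Col, against 37.7, 49.4 and 61.3 CPM in fls2 (1.19 ± 0.18, edgeR adjusted p = 2.5e-05). XTH2 had 29 counts and XTH29 48 counts over the Col libraries and none in fls2, at least 9.65-fold and at least 16.0-fold higher in Col against a floor of 3 counts over the fls2 group.

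Several members known from roots were low in Col at 10 h, and 5 of them are given here, chosen after their values were seen; XTH18, also known from roots, was higher. XTH12 (AT5G57530, chr5:23300321-23301689) had no count in any Col library, against 13.5, 18.6 and 16.2 CPM in the fls2 libraries, at least 162-fold lower in Col. XTH13 (AT5G57540, chr5:23302787-23304095), 89.4% identical to XTH12 in coding sequence and separated from it by 1 gene, likewise had no count in Col, against 13.0, 9.56 and 12.3 CPM in fls2. Its level in Col was at least 117-fold lower. XTH21, which is needed for normal root elongation, had none in Col, against 2.83, 2.95 and 3.65 CPM in fls2. Its level in Col was at least 31.7-fold lower. These bounds use a floor of 3 counts over the Col group and cover counting error only. XTH26, a root hair gene, had 0.497, 1.29 and 0.199 CPM in Col, against 30.4, 27 and 23.0 CPM in fls2 (-5.36 ± 0.53, edgeR adjusted p = 2.8e-07). XTH14, which also acts in root hairs, had 12.5, 13.2 and 8.05 CPM in Col, against 57.8, 91.4 and 70.2 CPM in fls2 (-2.75 ± 0.34, edgeR adjusted p = 3.4e-06). All 5 genes were low in every Col library and present in every fls2 library.

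Beside these, the root hair expansin genes EXPA7 and EXPA18, added after their values were seen, averaged 1.62 and 0.331 CPM in Col, against 12.5 and 12.3 CPM in fls2 at 10 h (EXPA7 -2.98 ± 0.35, edgeR adjusted p = 1.6e-06). EXPA18, this low in Col, is given as values with no test, like members that entered only through the higher group. The part of both expansin genes in the result was not tested. In whole seedlings, fewer cells of a type and less RNA per cell cannot be told apart.

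**Figure D3:**
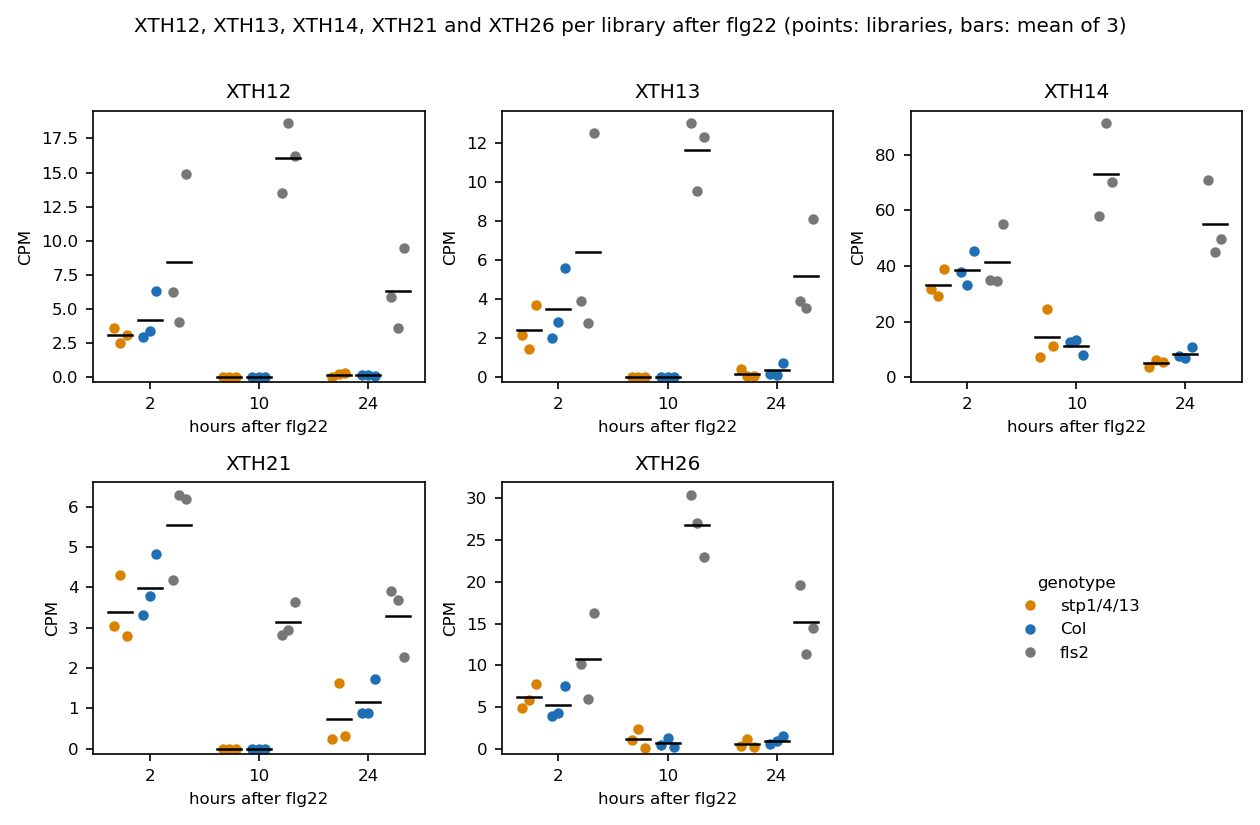
CPM per library (points, linear axis from 0) of XTH12, XTH13, XTH14, XTH21 and XTH26 in stp1/4/13, Col and fls2 at 2, 10 and 24 h, with bars at the mean of 3 libraries. XTH12, XTH13 and XTH21 have no count at 10 h in stp1/4/13 or Col, while the genotypes overlap at 2 h for XTH14.

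XTH31 had 13.0, 24.7 and 15 CPM in Col, against 209, 171 and 243 CPM in fls2 at 10 h (-3.60 ± 0.24, edgeR adjusted p = 2.6e-09). XTH17 had 0.796, 2.88 and 2.39 CPM in Col, against 17.4, 17.0 and 32.9 CPM in fls2 (-3.50 ± 0.43), and XTH19 had 2.88, 4.47 and 4.97 CPM in Col, against 11.1, 8.44 and 22.1 CPM in fls2 (-1.79 ± 0.36, edgeR adjusted p = 0.00052). XTH19, the neighbour of XTH18, and XTH17, its relative on another chromosome, were again low in Col where XTH18 was high. XTH4, XTH5, XTH6, XTH7, XTH8, XTH9, XTH16, XTH27 and XTH32 were lower by -2.55 to -0.32. The smallest of these, XTH27 (-0.32 ± 0.12, edgeR adjusted p = 0.031), lost its call in 7 alternatives. XTH20 had 0.696, 0.0993 and 0.994 CPM in Col, against 7.38, 3.97 and 7.69 CPM in fls2, and XTH33 had 0.895, 0.993 and 0.0994 CPM in Col, against 4.04, 1.42 and 4.42 CPM in fls2.

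At 24 h the balance was 4 higher and 9 lower of 29 members in Col, where 18.6% of all tested genes were called (11% higher and 7.59% lower). The median log2 fold change was -0.56 over the members and 0.01 over all genes. XTH30 had 126, 100 and 72.0 CPM in Col, against 47.8, 34.2 and 24.8 CPM in fls2 (1.58 ± 0.28, edgeR adjusted p = 0.0007). XTH11 had 6.26, 5.25 and 6.22 CPM in Col, against 1.93, 1.85 and 1.19 CPM in fls2 (1.92 ± 0.45, edgeR adjusted p = 0.0056). The Col libraries lay above the fls2 libraries for both. XTH23, at 148, 218 and 51.5 CPM in Col and 51.7, 46.8 and 10.5 CPM in fls2 (2.03 ± 0.58, edgeR adjusted p = 0.02), overlapped between groups, library 3 being the low one in both. The touch gene XTH22 (TCH4), at 137, 169 and 50 CPM in Col and 62.3, 62.5 and 24.1 CPM in fls2 (1.35 ± 0.41, edgeR adjusted p = 0.026), showed the same pattern. Both lost their calls without Col library 1 or 2, without fls2 library 3, or in a fit of Col and fls2 at 24 h alone.

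Of the 5 members known from roots that were given at 10 h, XTH12, XTH13, XTH14 and XTH26 were called lower at 24 h and XTH21 was not. XTH12 had 0.168, 0.125 and 0.106 CPM in Col, against 5.85, 3.58 and 9.48 CPM in fls2 (-5.41 ± 0.67, edgeR adjusted p = 1.7e-05). XTH26 had 0.559, 0.875 and 1.53 CPM in Col, against 19.6, 11.3 and 14.5 CPM in fls2 (-3.85 ± 0.48, edgeR adjusted p = 1.9e-05). XTH13 had 0.168, 0.125 and 0.739 CPM in Col, against 3.92, 3.52 and 8.09 CPM in fls2 (-3.77 ± 0.73, edgeR adjusted p = 0.0013). None of the 3 overlapped between groups. XTH14 had 7.60, 6.88 and 10.9 CPM in Col, against 70.9, 44.9 and 49.5 CPM in fls2 (-2.62 ± 0.25, edgeR adjusted p = 7.2e-07). XTH21 had 0.895, 0.875 and 1.74 CPM in Col, against 3.92, 3.70 and 2.28 CPM in fls2 (-1.41 ± 0.49, edgeR adjusted p = 0.053), without overlap. It passed in 7 alternatives, DESeq2 among them. XTH20 had 0.224, 1.94 and 2.37 CPM in Col and 2.34, 3.29 and 3.06 CPM in fls2 (-0.88 ± 0.46, edgeR adjusted p = 0.21). EXPA7 averaged 2.22 CPM in Col and 9.81 CPM in fls2 (-2.07 ± 0.43, edgeR adjusted p = 0.0023). XTH5, XTH6, XTH8, XTH17 and XTH19 were also lower, by -2.25 to -1.14; of these XTH6 (-1.53 ± 0.47, edgeR adjusted p = 0.029) lost its call without Col library 1 or 2, without fls2 library 2 or 3, or with the compared groups alone. XTH18, called higher at 2 h and 10 h, missed the threshold at 24 h (0.74 ± 0.26, edgeR adjusted p = 0.058), but passed with DESeq2, without fls2 library 1 or without Col library 3, at 0.73 to 0.89.

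Across the 3 times, XTH23 and XTH30 were called higher in Col each time, and XTH6, XTH8, XTH17 and XTH19 lower each time. No member was higher at one time and lower at another.

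The change of the Col over fls2 difference between 2 h and 24 h was tested directly as an interaction, and 10 of 29 members were called, where 10.5% of all genes were (4.5% upward and 6.04% downward). For 5 members the difference moved upward by 24 h: XTH33 by 2.77 ± 0.67 (edgeR adjusted p = 0.012), XTH7 by 1.98 ± 0.59 (edgeR adjusted p = 0.037), XTH4 by 1.72 ± 0.52, XTH27 by 1.6 ± 0.25 (edgeR adjusted p = 0.00066) and XTH9 by 1.14 ± 0.35. All 5 were called lower in Col at 2 h and were not called at 24 h. For the other 5 it moved downward: XTH12 by -4.62 ± 0.83 (edgeR adjusted p = 0.0017), XTH13 by -3.11 ± 0.93, XTH26 by -2.99 ± 0.62, XTH14 by -2.69 ± 0.33 (edgeR adjusted p = 0.00011) and XTH18 by -1.76 ± 0.37 (edgeR adjusted p = 0.0053). XTH12, XTH13, XTH14 and XTH26 were not called at 2 h, while EXPA7, at 17.2 CPM in Col and 10.9 CPM in fls2 (0.83 ± 0.39, edgeR adjusted p = 0.11), and EXPA18 (-0.10 ± 0.28, edgeR adjusted p = 0.81) were not called at that time either. XTH12, XTH14, XTH18, XTH26, XTH27 and XTH33 passed in all 19 alternatives, while XTH4 and XTH7 lost their calls in 9 and XTH9 and XTH13 in 8, most of these with a single library left out.

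**Figure D4:**
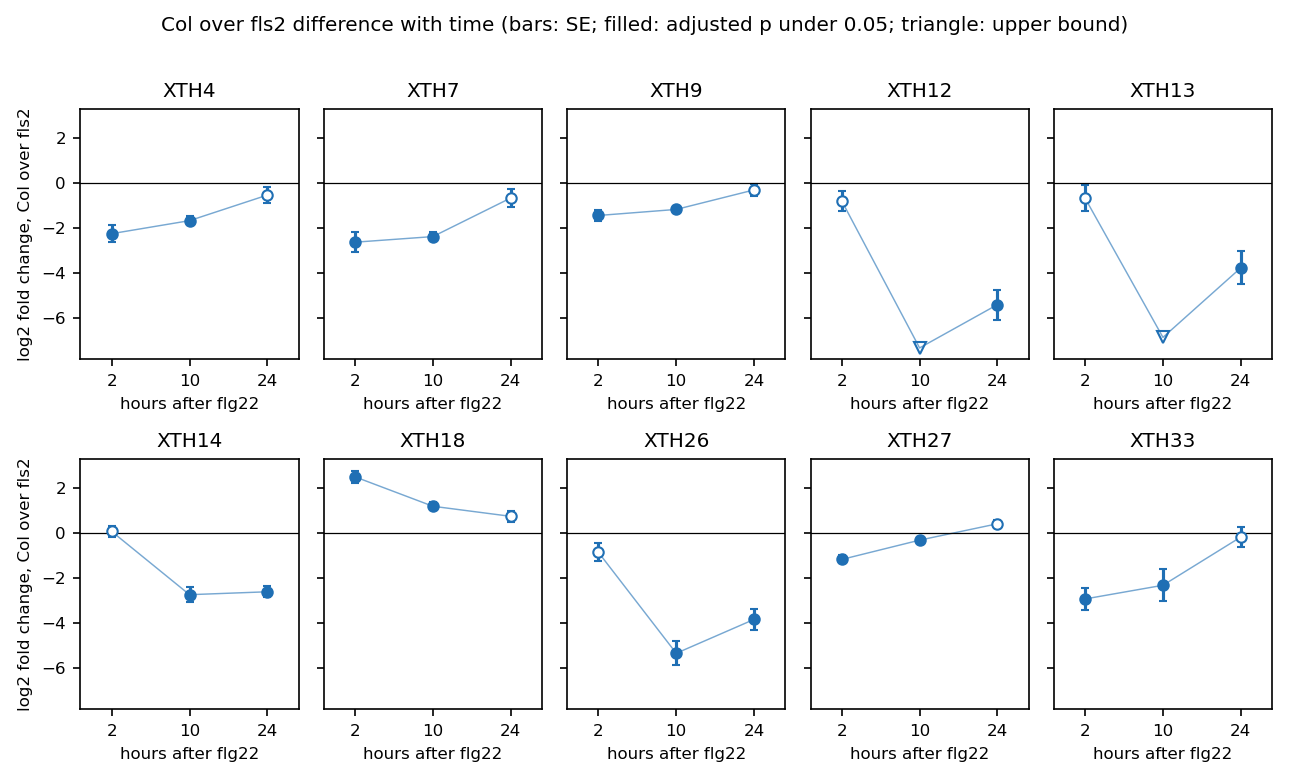
Log2 fold change of Col over fls2 (± SE) at 2, 10 and 24 h after flg22 for XTH4, XTH7, XTH9, XTH12, XTH13, XTH14, XTH18, XTH26, XTH27 and XTH33, the members called in the interaction. Filled points passed an edgeR adjusted p of 0.05, also for XTH33 at 10 h, which entered only through fls2, and open triangles for XTH12 and XTH13 at 10 h are upper bounds, since Col had no count; XTH14 lies near 0 at 2 h and below -2 later, while XTH7 and XTH33 lie below -2 at 2 h and 10 h and nearer 0 at 24 h.

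In stp1/4/13 the members were set against fls2 in the same way; these comparisons share the fls2 libraries with those of Col. At 2 h, 3 members were higher and 9 lower of 29, where 25.6% of all genes were called (15.8% higher and 9.82% lower). XTH18 had 245, 153 and 213 CPM in stp1/4/13 (1.89 ± 0.27, edgeR adjusted p = 3.8e-05), above the fls2 values given before. XTH30 had 46.5, 45.1 and 65.2 CPM in stp1/4/13 (1.50 ± 0.29, edgeR adjusted p = 0.00067), and XTH29 was the other member that rose. XTH33 was lower by -2.09 ± 0.47 (edgeR adjusted p = 0.0029), XTH7 by -2.08 ± 0.43 (edgeR adjusted p = 0.0013) and XTH6 by -1.67 ± 0.46 (edgeR adjusted p = 0.012), the XTH6 call being lost without stp1/4/13 library 1 or 3. XTH4, XTH8, XTH9, XTH12, XTH19 and XTH27 were also lower. Of these, XTH12 (-1.30) lost its call in 5 of the 6 fits that left out a library of either group, with values down to -0.67 and an edgeR adjusted p of up to 0.35. XTH9 (-0.75) lost its call without any 1 of the stp1/4/13 libraries or fls2 library 2, and XTH4 without fls2 library 2.

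At 10 h, 8 members were higher and 17 lower of 30 in stp1/4/13 than in fls2, where 52.2% of all genes were called (26.9% higher and 25.3% lower). Without genes that entered only through the higher group, 6 members were higher and 12 lower of 23, against 28.1% higher and 24.5% lower of all genes. XTH30 had 88.2, 78.7 and 92.4 CPM in stp1/4/13 (2.63 ± 0.16) and XTH24 had 865, 940 and 822 CPM (2.43 ± 0.15, edgeR adjusted p = 5.7e-10), both far above fls2. XTH11 had 2.83, 3.05 and 3.38 CPM in stp1/4/13, against 1.52, 0.102 and 0.673 CPM in fls2. XTH12, XTH13 and XTH21 had no count in stp1/4/13 either, at least 168-fold, 121-fold and 32.9-fold lower than in fls2. At 24 h, 2 members were higher and 8 lower of 29, where 19.9% of all genes were called (11.5% higher and 8.39% lower). XTH11 had 9.14, 5.02 and 8.27 CPM in stp1/4/13 (2.22 ± 0.45, edgeR adjusted p = 0.0017), and XTH27, a gene of vein development also named EXGT-A3, had 413, 387 and 609 CPM in stp1/4/13, against 289, 250 and 262 CPM in fls2 (0.86 ± 0.18, edgeR adjusted p = 0.0021). XTH27 had been lower at 2 h, at 126, 169 and 127 CPM in stp1/4/13 and 287, 348 and 299 CPM in fls2. XTH12 was lower by -5.12 ± 0.65, XTH13 by -4.81 ± 0.81, XTH26 by -4.58 ± 0.51 and XTH14 by -3.39 ± 0.26, and every stp1/4/13 library lay below every fls2 library. XTH19 was called lower at all 3 times.

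The direct comparison of stp1/4/13 with Col asks how the members differ under flg22 in plants without the 3 transporters. At 2 h no member was called by edgeR, where 0.219% of all genes were (0.172% higher and 0.0466% lower); 5 members had an unadjusted p under 0.05 and DESeq2 called 1, XTH6. XTH6 had 5.45, 15.1 and 4.90 CPM in stp1/4/13, all above the 2.69, 1.26 and 2.19 CPM in Col (2.00 ± 0.51, edgeR adjusted p = 0.15).

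At 10 h, 3 members were higher and 3 lower of 30 in stp1/4/13 than in Col, where 12.5% of all genes were called (7.67% higher and 4.84% lower). Of these 30, 3 had no count in either group and could not be called: XTH12, XTH13 and XTH21. XTH6 had 8.75, 6.95 and 4.44 CPM in stp1/4/13, against 1.59, 0.795 and 1.69 CPM in Col (2.38 ± 0.37, edgeR adjusted p = 0.0005). The fls2 libraries, at 7.18, 7.32 and 8.75 CPM, lay in the range of stp1/4/13. XTH24 was higher in stp1/4/13 (0.77 ± 0.14, edgeR adjusted p = 0.0017), and XTH27 had 208, 215 and 213 CPM in stp1/4/13, against 153, 174 and 160 CPM in Col (0.47 ± 0.12, edgeR adjusted p = 0.015). XTH23 had 26.9, 30.9 and 24.6 CPM in stp1/4/13, below Col and above fls2 in every library (-1.18 ± 0.25, edgeR adjusted p = 0.0053). XTH18, with 74.0, 73.3 and 63.0 CPM in stp1/4/13, also lay between Col and fls2 (-0.65 ± 0.17, edgeR adjusted p = 0.021). XTH19 had 0.796, 1.81 and 1.37 CPM in stp1/4/13, against 2.88, 4.47 and 4.97 CPM in Col (-1.55 ± 0.42, edgeR adjusted p = 0.024), further below fls2 than Col was. The XTH18 call was lost without Col library 1 or 2 or stp1/4/13 library 1 or 3, the XTH19 call without Col library 2 or 3 or stp1/4/13 library 1 or 3, and the XTH27 call without Col library 1 or 3 or stp1/4/13 library 2. XTH6, XTH23 and XTH24 passed with any single library left out.

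At 24 h, 3 members were higher and 2 lower of 29 in stp1/4/13, where 9.01% of all genes were called (4.46% higher and 4.55% lower). XTH6 had 13.4, 18.4 and 29.9 CPM in stp1/4/13, against 1.79, 4.69 and 10.1 CPM in Col (1.88 ± 0.47, edgeR adjusted p = 0.023). XTH16 had 63.9, 56.5 and 55.9 CPM in stp1/4/13, against 24.4, 23.9 and 41.5 CPM in Col (0.95 ± 0.24, edgeR adjusted p = 0.022), and XTH9 had 54.0, 62.0 and 83.6 CPM in stp1/4/13, against 26.7, 38.3 and 38.9 CPM in Col (0.92 ± 0.25, edgeR adjusted p = 0.03). For all 3 the stp1/4/13 libraries were above those of Col. XTH30 had 39.5, 40.9 and 62.5 CPM in stp1/4/13, against 126, 100 and 72.0 CPM in Col (-1.12 ± 0.28, edgeR adjusted p = 0.023). XTH18 had 105, 102 and 149 CPM in stp1/4/13, against 173, 292 and 168 CPM in Col (-0.86 ± 0.26, edgeR adjusted p = 0.049). These 5 calls were fragile: none passed without Col library 1 or 2 or with the compared groups alone, 10 members passed without Col library 3, and 3, 1 and 2 passed without stp1/4/13 library 1, 2 and 3. All 5 passed with DESeq2 and with a block for the library number. Both of these fits also called XTH5, XTH14 and XTH32, and the block called XTH4 as well. The change of the stp1/4/13 over Col difference from 2 h to 24 h was called for no member by edgeR or DESeq2, with 3 members at an unadjusted p under 0.05 and 0.028% of all genes called (0.0186% upward and 0.00932% downward).

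Between 24 h and 2 h after flg22, stp1/4/13 changed in 6 members upward and 8 downward, where 27.4% of all genes were called (14% upward and 13.3% downward). Col changed in 9 upward and 8 downward (32.7% of all genes, 17.1% upward and 15.7% downward), and fls2 in 7 upward and 5 downward (19.8%, 11.9% upward and 7.93% downward). These contrasts include the age of the seedlings and the time in liquid medium. XTH22 was at 137, 169 and 50 CPM at 24 h in Col, against 16.4, 14.8 and 24.0 CPM at 2 h (2.62 ± 0.43), and XTH23 rose by 2.28 ± 0.58 in Col and by 1.93 in fls2. XTH24 had 542, 506 and 142 CPM at 24 h in fls2, against 98.2, 63.4 and 139 CPM at 2 h (2.00 ± 0.44), and rose by 2.63 ± 0.45 in stp1/4/13. Library 3 of fls2 at 24 h was the low one for XTH22, XTH23 and XTH24. XTH12 fell by 5.01 ± 0.68 in Col and by 4.21 in stp1/4/13, while fls2 had 5.85, 3.58 and 9.48 CPM at 24 h and 6.27, 4.05 and 14.9 CPM at 2 h, which overlapped. XTH20, a gene expressed in roots and in cut stems, had 0.224, 1.94 and 2.37 CPM at 24 h in Col, against 8.92, 13.1 and 8.41 CPM at 2 h (-2.85 ± 0.46), and fell by 1.98 in fls2 too. XTH31 fell by 2.49 ± 0.66 in fls2. The fls2 calls of XTH23, XTH24 and XTH31 were lost without fls2 24 h library 1 or fls2 2 h library 2, among others. The fls2 count of 12 calls became 2 without fls2 24 h library 1, 3 without fls2 2 h library 2 and 7 without fls2 24 h library 2.

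In the sugar experiment, 8 members were higher and 14 lower of 28 in 2DG_1mM than in Suc_0mM, where 49.2% of all genes were called (21.3% higher and 27.9% lower). Without genes that entered only through the higher group, 6 were higher and 14 lower of 26, against 20.5% higher and 28.2% lower of all genes, and the median log2 fold change was -1.58 over the members and -0.23 over all genes. Of the 7 group 1 members among these 26, 1 was higher and 6 were lower. If the treatment label is right in place of the title, these values belong to Suc_25mM against Suc_0mM.

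XTH10, XTH11 and XTH29 had few counts in the other groups. Since XTH10 and XTH29 entered only through 2DG_1mM, their rises are not ranked. XTH10 had 18.4, 9.49 and 17.4 CPM in 2DG_1mM, against 0, 0.259 and 0.699 CPM in Suc_0mM. XTH11 had 27.7, 50.7 and 25.7 CPM in 2DG_1mM, against 2.13, 0.950 and 1.63 CPM in Suc_0mM (4.52 ± 0.43, edgeR adjusted p = 1.2e-05). In the other 11 groups the highest library had 6.07 CPM of XTH10 and 9.14 CPM of XTH11. XTH29 had 2.35, 1.90 and 6.60 CPM in 2DG_1mM and no count in Suc_0mM, at least 42.5-fold higher. XTH30 had 413, 468 and 383 CPM in 2DG_1mM, against 35.9, 26.8 and 37.2 CPM in Suc_0mM (3.72 ± 0.28, edgeR adjusted p = 2.8e-06). XTH23 had 140, 171 and 102 CPM in 2DG_1mM, against 11.5, 4.75 and 3.34 CPM in Suc_0mM (4.50 ± 0.57), and XTH22 had 177, 190 and 166 CPM in 2DG_1mM, against 26, 10.9 and 11.9 CPM in Suc_0mM (3.54 ± 0.48). None of these genes overlapped between the groups. XTH18 had 324, 372 and 305 CPM in 2DG_1mM, against 103, 15.3 and 27.7 CPM in Suc_0mM (2.89 ± 0.54, edgeR adjusted p = 0.001). XTH19, lower in Col than in fls2 after flg22, here had 31.9, 26.8 and 37.5 CPM in 2DG_1mM, against 8.61, 5.35 and 7.37 CPM in Suc_0mM (2.23 ± 0.28, edgeR adjusted p = 6.7e-05).

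Falls under 2DG_1mM took several members to or near 0. XTH15, also named XTR7 and known for induction by brassinosteroid and shade, had 0.0938, 0 and 0.112 CPM in 2DG_1mM, against 14.3, 54.1 and 25.2 CPM in Suc_0mM (-8.58 ± 0.80, edgeR adjusted p = 1e-05). XTH6 had 0.281, 0 and 0.894 CPM in 2DG_1mM, against 23.3, 40.6 and 51.9 CPM in Suc_0mM (-6.60 ± 0.71, edgeR adjusted p = 2.6e-05). Both were lower in every 2DG_1mM library by a wide margin. XTH13 had no count in 2DG_1mM and 1.23, 1.81 and 2.10 CPM in Suc_0mM, at least 17.0-fold lower, and XTH21 was at least 6.73-fold lower. XTH12, XTH7, XTH9, XTH4, XTH31, XTH8, XTH32, XTH16, XTH5 and XTH28 fell by 5.27 to 0.86. The XTH28 call was lost in 5 of the 6 fits that left out a library of either group, and the XTH5 call without library 2 of either group or with the compared groups alone. XTH14 did not pass, at 25.6, 14.9 and 9.95 CPM in 2DG_1mM and 11.1, 19.9 and 36.1 CPM in Suc_0mM, which overlapped.

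Against Suc_25mM, 7 members were higher and 15 lower in 2DG_1mM, where 49.3% of all genes were called (21.4% higher and 28% lower), and 5 were higher and 13 lower of 24 without genes that entered only through the higher group (21.3% and 27.5% of all genes). The median log2 fold change was then -2.61 over the members and -0.19 over all genes. The 2DG_1mM libraries are those of the comparison before. XTH11 was at 1.58, 1.36 and 1.99 CPM in Suc_25mM (4.59 ± 0.44, edgeR adjusted p = 1.3e-05) and XTH30 at 39.8, 46.5 and 27.1 CPM (3.65 ± 0.28). XTH10 had 1.02, 1.27 and 0.869 CPM in Suc_25mM. XTH15 was at 10.1, 16.0 and 10.4 CPM in Suc_25mM (-7.10 ± 0.80, edgeR adjusted p = 3.9e-05). XTH21 and XTH13 were at least 34.3-fold and 24.5-fold lower in 2DG_1mM. XTH19, at 35.8, 49.7 and 40.6 CPM in Suc_25mM, did not pass (-0.22 ± 0.26, edgeR adjusted p = 0.51).

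By title, Suc_25mM differed from Suc_0mM in 5 members and 2DG_1mM in 22; by the treatment label the counts are the other way round, with 22 for Suc_25mM and 5 for 2DG_1mM. In libraries titled Suc_25mM, 4 were higher and 1 lower of 28 than in Suc_0mM, where 12.5% of all genes were called (6.41% higher and 6.08% lower). XTH19 was higher by 2.45 ± 0.28 (edgeR adjusted p = 0.00039), with no overlap. XTH5 had 19.4, 30.9 and 36.3 CPM in Suc_25mM, against 5.0, 9.84 and 7.06 CPM in Suc_0mM (1.85 ± 0.38, edgeR adjusted p = 0.0084). XTH6 had 5.40, 5.36 and 7.95 CPM in Suc_25mM (-2.78 ± 0.55, edgeR adjusted p = 0.0068), each library below the Suc_0mM values. XTH23, at 18.9, 52.6 and 16.4 CPM in Suc_25mM and 11.5, 4.75 and 3.34 CPM in Suc_0mM (2.11 ± 0.52, edgeR adjusted p = 0.021), and XTH22, at 62.5, 117 and 29.8 CPM in Suc_25mM (2.03 ± 0.46, edgeR adjusted p = 0.014), were highest in library 2 of Suc_25mM. Both lost their calls without that library or without Suc_0mM library 2 or 3. XTH24 had 431, 1470 and 417 CPM in Suc_25mM, against 1730, 1520 and 2020 CPM in Suc_0mM (-1.29 ± 0.44, edgeR adjusted p = 0.082), and without library 2 of Suc_25mM it passed at -2.20. Leaving out Suc_0mM library 1 gave 8 calls, and leaving out Suc_0mM library 2 or 3 gave 3.

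The flg22 comparisons and those of 2DG_1mM and Suc_25mM with Suc_0mM share no library. Overlaps were counted over genes tested in both comparisons, without those that entered either only through the higher group. Between Col against fls2 at 10 h and 2DG_1mM against Suc_0mM, XTH18, XTH23 and XTH30 were higher in both, 75% of 4 and 50% of 6 members, where 46% and 57.8% of all genes higher in one were higher in the other. XTH4 to XTH9, XTH16, XTH31 and XTH32 were lower in both, 9 members. These are 64.3% of the 14 lower in Col than in fls2 and 81.8% of the 11 lower in 2DG_1mM than in Suc_0mM. The shares over all genes were 55.4% and 52.2%. XTH19 was called in opposite directions, lower in Col than in fls2 and higher in 2DG_1mM than in Suc_0mM, as were 772 of 17500 genes.

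With Col against fls2 at 2 h, 2DG_1mM shared 3 members higher and 6 lower, 100% and 60% of those called between Col and fls2, against 48% and 67.3% of all genes. With 24 h it shared 4 higher and 5 lower, 100% and 55.6%, against 53% and 64.5% of all genes. Between Suc_25mM against Suc_0mM and Col against fls2 at 10 h, XTH23 was higher and XTH6 lower in both. XTH5 and XTH19 were called in opposite directions. The shares over all genes are not given for this overlap, so it cannot be set against them. In Suc_25mM the XTH23 call was lost without Suc_25mM library 2 or without Suc_0mM library 2 or 3. These overlaps are descriptions and were not tested.

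Summed over all members, the family took 2329 CPM on average in 2DG_1mM, 1752 CPM in Suc_25mM (1253 to 2676) and 2682 CPM in Suc_0mM. Under flg22 the sums at 2, 10 and 24 h averaged 1033, 1605 and 1918 CPM in stp1/4/13, 1070, 1330 and 1798 CPM in Col and 1715, 1581 and 1523 CPM in fls2. A sum adds levels over genes and follows the members with the most counts, so it gives no trend of the family as a whole. XTH24 alone averaged 1760 CPM in Suc_0mM and 771 CPM in Suc_25mM. In Col, XTH24 averaged 125 CPM at 2 h and 571 CPM at 24 h, and XTH27 124 and 336 CPM. XTH24 was also higher at 24 h in fls2, where the sum was lower.

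Other genes of the pathway gave the following counts between Col and fls2. Counts and shares of these lists, here and in the next paragraph, keep any gene that entered a test only through its higher group. They are thus unlike the member counts given without such genes, and how many calls rest on such genes is not given here. Of the expansins, which loosen the wall without cutting it, 10 of 24 tested were lower at 2 h, 15 lower and 3 higher of 23 at 10 h, and 8 of 24 lower at 24 h, the others not being called; of all tested genes, 16.1%, 26.4% and 7.59% were lower at these times. EXPA3 averaged 5.48 CPM in Col and 44.7 CPM in fls2 at 2 h (-2.88 ± 0.43, edgeR adjusted p = 3.9e-05). Of the genes of xyloglucan synthesis, 2 of 14 were lower at 2 h, 6 of 13 at 10 h and 3 of 14 at 24 h, and none was higher. The shares called were 14.3%, 46.2% and 21.4%, against 34.8%, 51.3% and 18.6% of all genes. CSLC12, a synthase of the glucan backbone, averaged 1.06 CPM in Col and 9.94 CPM in fls2 at 10 h (-3.26 ± 0.45, edgeR adjusted p = 1e-05). Of the 5 glycosidase genes that trim xyloglucan side chains, 3 were lower and 1 higher at 2 h, 4 lower and 1 higher at 10 h, and 2 lower at 24 h, which is 80%, 100% and 40% called. XYL1, the alpha-xylosidase, averaged 135, 192 and 93.9 CPM in Col at 2, 10 and 24 h, against 378, 705 and 228 CPM in fls2 (-1.35 ± 0.23, -1.93 ± 0.17 and -1.21 ± 0.23). Of the other 3 touch genes, 2 were higher at 2 h, 2 at 10 h and 1 at 24 h, where 18.7%, 24.9% and 11% of all genes were higher. CML12 (TCH3), a calmodulin-like protein, averaged 818 CPM in Col and 121 CPM in fls2 at 2 h (2.94 ± 0.32, edgeR adjusted p = 1.1e-06), whereas XTH22, the touch-induced XTH, was not called at 2 h or 10 h.

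In 2DG_1mM against Suc_0mM, 16 expansins were lower and 2 higher of 23, 6 genes of xyloglucan synthesis lower and 3 higher of 13, and 3 of the 5 trimming genes lower, which is 78.3%, 69.2% and 60% called, against 49.2% of all genes. XYL1 averaged 19.9 CPM in 2DG_1mM and 179 CPM in Suc_0mM (-3.14 ± 0.37, edgeR adjusted p = 5e-05). CML12 averaged 307 CPM in 2DG_1mM and 115 CPM in Suc_0mM (1.54 ± 0.47, edgeR adjusted p = 0.018). Between stp1/4/13 and Col, 4 expansins were lower in stp1/4/13 at 10 h and 2 were higher at 24 h, where 4.84% of all genes were lower and 4.46% higher.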

How the data were processed

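RNA sequencing of whole seedlings was made in 36 libraries, 3 for each of 12 groups. Per the labels' protocols, 500 ng of RNA went into each strand-specific 3′ library (BrAD-seq). The tool list in the submitters' processing notes holds fastp 0.19.7, STAR 2.6.1b and featureCounts 1.6.0, with build TAIR10. The authors deposited 2 tables of raw counts per locus; strand and multi-mapping settings are not given in the sources used here, so counts of members that overlap an antisense gene or share sequence are less certain.

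From these counts, edgeR 4.0.16 (R 4.3.3; TMM scaling, filterByExpr, quasi-likelihood, two-sided, Benjamini-Hochberg over all genes of a fit) was run in 3 fits: 18 libraries of 2 h and 24 h, 9 of 10 h, and 9 of the sucrose and 2DG groups. The p-values measure the spread between 3 libraries, whose trial numbers are not stated. Groups came from titles. Members and lists were chosen with earlier results of these data known. Per comparison, up to 3 called members with the largest rise and fall and a mean of at least 1 CPM were given per library; others are named after their values were seen. Alternatives were DESeq2 1.42.0, other scaling, filters and groups in the fit, a block for the library number, and each library left out. The procedure was tested on simulated data. Sequences were read from the TAIR10.1 genome and RefSeq annotation, which is not named as the authors' build.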

Additional observations from a re-analysis of the deposited data

Results flagged for a closer look

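A change of the Col over fls2 difference between 2 h and 24 h after flg22 was called for 10 of 29 members by the interaction test. Of all genes, 10.5% were called. The 24 h difference was higher than the 2 h difference by 2.77 in XTH33, 1.98 in XTH7, 1.72 in XTH4, 1.6 in XTH27 and 1.14 in XTH9 on the log2 scale. It was lower by -4.62 in XTH12, -3.11 in XTH13, -2.99 in XTH26, -2.69 in XTH14 and -1.76 in XTH18. Of the 19 alternatives, XTH4 and XTH7 lost their calls in 9, and XTH9 and XTH13 in 8.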

How the results depend on the processing

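Of 213 called member values over the 15 comparisons and 2 interactions, 159 passed in every alternative and 0 changed sign; 0 were lost with DESeq2, 20 with a fit of the compared groups alone and 53 when some library was left out. The 5 calls between stp1/4/13 and Col at 24 h were 8 with DESeq2, 0 with only the compared groups, and 0 to 10 when a library was left out. At 2 h that comparison had 1 call with DESeq2. Suc_25mM against Suc_0mM had 10 calls with DESeq2, 8 without a filter and 3 to 8 with a library left out, and fls2 at 24 h against 2 h had 2 to 14. With groups from the treatment label, 2DG_1mM against Suc_0mM had 5 calls and Suc_25mM against Suc_0mM 22, and 2DG_1mM against Suc_25mM changes sign by construction; over all genes those counts were 2463 and 9697. The causes of the other moves were not tested.

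Over all genes, stp1/4/13 against Col at 2 h had 47 calls, 224 with DESeq2 and 27 with only the compared groups; at 24 h it had 1934 and 184 with only the compared groups, and Col against fls2 at 24 h had 3984 and 2090. The interaction of stp1/4/13 over Col had 6, 3 with RLE scaling, 47 with DESeq2 and 2 with only the compared groups. Scaling by library totals moved the all-gene median by -0.16 in Col against fls2 and -0.11 in stp1/4/13 against fls2 at 2 h, by 0.12 in Suc_25mM against Suc_0mM and by -0.18 in 2DG_1mM against Suc_25mM.

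The labels do not say that a library number marks a trial. Deviations from group means correlated at a median of 0.19 between same-numbered libraries of a time at 2 h and 24 h (-0.076 for other numbers), 0.021 at 10 h and 0.032 in the sucrose and 2DG groups. In these, 18 of 18, 5 of 9 and 8 of 9 libraries correlated best with their own number. With the replicate block, stp1/4/13 against Col at 24 h had 9 member calls and 3227 calls over all genes, 126 at 2 h over all genes, and its interaction 16; 0 member calls were lost. Members that passed with the block and not in the 3 fits above included XTH31 and XTH32 in Col against fls2 at 2 h. Others were XTH13 and XTH31 in stp1/4/13 against fls2 at 2 h, XTH8 and XTH9 in it at 24 h, and XTH21 and XTH31 in Col against fls2 at 24 h. XTH8 in stp1/4/13 against Col at 10 h and XTH27 in Suc_25mM against Suc_0mM passed likewise, as did XTH6 and XTH11 in the Col over fls2 interaction. Several of these also passed in other alternatives.

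Depth limits members with few counts, such as XTH2, XTH25 and XTH29, whose values rest on counts near the floor in most groups.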
